A study of Mus musculus with 12 samples.

Results

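The genes described here are 42 genes of the skeletal muscle fibre, chosen by name for their part in contraction: 6 sarcomeric myosin heavy chains, 4 myosin light chains, 9 genes of the thin filament, 9 of the thick filament and Z disc, 6 of calcium handling, 6 of energy supply and 2 of the synapse. The choice was made with earlier results of these data known. Each gene was found by its gene symbol in the platform annotation and read from its brightest probe set. They are 42 of the 18193 genes that the array measures with a probe set of a single symbol, and all 42 were among the 14172 genes that passed the filter on low signal. The RNA was that of mouse conjunctival fornix epithelium, from the fold where the lid's lining meets that of the eyeball, cut out by laser. Affymetrix arrays, 12 in all and 1 per sample, were used to measure it, with 3 samples in each of 4 groups, all labelled as of mixed background. These were Klf4CN, a conditional knockout of the transcription factor gene Klf4, at postnatal day 14 (PN14), and wild type at postnatal days 9 (PN9), 14 and 20 (PN20). Between 20 and 120 ng of RNA per sample went through 2 rounds of amplification. The labels do not name the Cre driver or the deleted part of Klf4, and they call the samples independent without saying which animals they came from. A p-value here therefore reflects no more than the scatter among these samples, part of which may be technical.

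Skeletal muscle shortens by sliding thick filaments of myosin along thin filaments of actin, with calcium released from the sarcoplasmic reticulum as the switch. Each fibre builds its thick filaments from myosin heavy chain isoforms that set its speed: embryonic and neonatal chains come first, and in most muscles fast (2A, 2X and 2B) or slow chains take their place after birth. The muscles of the eye and lid are known as exceptions, since extraocular muscles keep embryonic and neonatal chains into adult life and the lid-closing orbicularis oculi is a very fast muscle. The conjunctival epithelium itself has no sarcomeres.

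The heavy chain genes Myh3, Myh2, Myh1, Myh4 and Myh8 lie next to each other in this order on chromosome 11, with Myh13 after them, and Myh7 lies on chromosome 14. The 250 bases upstream of the start are printed for Myh4 (GRCm38.p6 chr11:67237562-67237811, plus strand), Myh1 (chr11:67199852-67200101, plus strand) and Myh8 (chr11:67276874-67277123, plus strand), because these 3 neighbours of 1 cluster encode chains of 2B fibres, of 2X fibres and of neonatal muscle whose values are followed below, and for Acta1 (chr8:123894776-123895025, minus strand), the actin of the thin filament. The sequences are from RefSeq and run 5′ to 3′ on the strand of the gene. Capitals mark the E-box (CANNTG) that myogenic factors of the MyoD family bind, the TATA box (TATAAA, on the strand of the gene only), the site of the MEF2 factors and the CArG box of serum response factor, the last pair searched by their standard patterns on both strands, with overlaps allowed.
Myh4: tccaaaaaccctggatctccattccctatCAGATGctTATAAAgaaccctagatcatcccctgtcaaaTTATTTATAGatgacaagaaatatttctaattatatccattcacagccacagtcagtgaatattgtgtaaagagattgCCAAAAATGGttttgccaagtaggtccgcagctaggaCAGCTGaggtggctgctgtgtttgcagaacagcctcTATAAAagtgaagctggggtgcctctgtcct
Myh1: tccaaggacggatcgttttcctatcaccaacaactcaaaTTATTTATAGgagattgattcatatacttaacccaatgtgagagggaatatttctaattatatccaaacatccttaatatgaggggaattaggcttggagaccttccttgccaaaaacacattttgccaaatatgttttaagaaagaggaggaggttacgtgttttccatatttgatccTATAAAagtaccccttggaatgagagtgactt
Myh8: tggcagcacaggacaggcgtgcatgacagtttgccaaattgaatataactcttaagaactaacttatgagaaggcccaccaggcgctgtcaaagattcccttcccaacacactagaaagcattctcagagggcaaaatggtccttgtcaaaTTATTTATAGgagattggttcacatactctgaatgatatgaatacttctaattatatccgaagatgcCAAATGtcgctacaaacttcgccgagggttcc
Acta1: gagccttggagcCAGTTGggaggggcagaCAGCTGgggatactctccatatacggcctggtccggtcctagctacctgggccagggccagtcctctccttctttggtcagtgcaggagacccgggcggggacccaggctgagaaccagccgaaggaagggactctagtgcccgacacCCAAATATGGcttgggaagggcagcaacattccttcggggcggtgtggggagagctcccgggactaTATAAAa

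Myh4, Myh1 and Myh8 each held 1 MEF2 match with the same 10 letters, TTATTTATAG. Myh4 also held 2 E-boxes, 2 TATA boxes and 1 CArG box, Myh1 had 1 TATA box and no E-box, and Myh8 had 1 E-box and no TATA box. Acta1 held 2 E-boxes, 1 TATA box and 1 CArG box. The RefSeq promoter table had 34 of the 42 genes. In the same upstream window an E-box was found for 31 of these 34 genes and in 66.2% of all 32851 promoters, a TATA box for 5 genes and in 7.59% of promoters, a MEF2 match for 8 genes and in 2.92%, and a CArG box for 3 genes and in 1.47%. These are matches of letters, and binding was not measured.

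The amount of muscle signal differed between arrays of the same group by more than most genes did, and this bears on every value below. As a measure of it, the log2 levels of 14 genes that fast and slow fibres both use were averaged on each array, here called the shared fibre level. It was 5.29, 6.34 and 8.28 on PN9 replicates 1, 2 and 3, 9.15, 8.95 and 8.41 at PN14 and 8.33, 7.08 and 6.61 at PN20, and on the Klf4CN arrays it was 8.10, 8.73 and 9.88. PN9 replicate 1 was the lowest of its group for 31 of the 42 genes and PN9 replicate 3 the highest for 38. PN14 replicate 3 was the lowest PN14 array for 38 genes, PN20 replicate 1 the highest PN20 array for 39, and Klf4CN replicate 3 the highest Klf4CN array for 35. The median SD of the 42 genes within a group was, on the log2 scale, 0.83 in Klf4CN, 1.24 at PN9, 0.40 at PN14 and 0.85 at PN20. For all genes it was 0.32 in Klf4CN, 0.28 at PN9, 0.24 at PN14 and 0.18 at PN20. Together the 42 genes made up 0.0338% of the summed signal on PN9 replicate 1 and 1.17% on Klf4CN replicate 3. In such bulk samples a larger number of fibres in the capture and more RNA per fibre cannot be told apart.

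The 14 epithelial markers of the labelled tissue, among them the keratins Krt4 and Krt15, all had Present calls (the authors' detection call) in each wild type group, and 1, Muc5ac, had none in Klf4CN. Their summed signal was 29385 to 49523 on the Klf4CN arrays, and in wild type it was 32430.2 to 54051 at PN9, 45634 to 64399 at PN14 and 59930.1 to 61868 at PN20. The lowest sum fell on the array of highest shared fibre level in Klf4CN (replicate 3), at PN9 (replicate 3) and at PN14 (replicate 1). At PN20 the array of highest shared fibre level, replicate 1, had the highest sum. This relation was not tested. Of the 42 fibre genes, 36 had 3 Present calls in Klf4CN, and in wild type 17 had them at PN9, 38 at PN14 and 27 at PN20. Musk, the receptor kinase that builds the nerve-muscle synapse, had none in any group. The 3′ over 5′ ratio of the actin control probe sets, a gauge of RNA integrity that goes up as RNA is degraded, was 5.40 to 17.5 in Klf4CN, and in wild type 24.2 to 46.8 at PN9, 11.1 to 24.9 at PN14 and 9.76 to 16.5 at PN20. Klf4 itself read 7415 to 10908 on the Klf4CN arrays, against 4382 to 6827 on the PN14 arrays, so the array signal of the targeted gene was not lower in the arrays labelled as its knockout, and the sources used here do not place its probes inside or outside the deleted part.

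Part of the muscle fibre genes had a higher signal at PN14 than at PN9, between groups that also differed in the actin ratio. Of the 42 genes, 9 passed at PN14 over PN9, all of them higher (limma, adjusted p under 0.05 over all 14172 genes): the heavy chains Myh3, Myh1 and Myh4, the Z disc protein Actn3, the calcium handling genes Pvalb and Atp2a1, and the energy genes Ckmt2, Pgam2 and Mb. Over all genes 4.34% passed as higher and 2.66% as lower. The median log2 change was 1.75 for the 42 genes and 0.01 for all genes, and 41 of the 42 changes were positive, Tpm1 being the exception. In 17 of the 42 genes every PN14 array lay above every PN9 array, which held for 17% of all genes, and in 0 every PN14 array lay below, which held for 12.8%. At an unadjusted limma p under 0.05 there were 29 of the 42, against 26% of all genes. The rule in the authors' deposited table called 16 of the 42, all upward, against 5.44% of all genes in either direction. Since these genes moved together from array to array, their counts are not counts of independent changes. Without PN9 replicate 3, the PN9 array with the most muscle signal, 26 genes passed, and without Klf4CN replicate 3, an array of neither group compared, 20 did. Leaving out PN9 replicate 1, PN9 replicate 2, PN14 replicate 1 or PN14 replicate 2 lowered the count to 4, 3, 3 and 3. When the actin ratio entered the fit, 1 gene, Myh4, passed. The ratio was 46.8, 33.8 and 24.2 on PN9 replicates 1, 2 and 3, falling as the shared fibre level of these arrays rose. At PN14 it was 11.1, 24.9 and 21.1, without that order. RNA integrity was thus partly confounded with age, and their parts in the fibre result cannot be told apart here. In the same comparison 0 of 11 markers of smooth muscle and mural cells and 1 of 11 of fibroblasts and stroma passed, that 1 being Vim, which was lower, and 5 of 14 epithelial markers passed as higher; their part in the fibre result was not tested.

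Among the heavy chains, Myh4, the chain of the fastest 2B fibres, had the largest change. Its array signals were 12.97, 7.95 and 142 at PN9, 3515, 4341 and 1979 at PN14 and 459, 201 and 213 at PN20. The 3 PN14 arrays stood above every array of the other ages, of which the highest, PN20 replicate 1, read 459. The log2 change at PN14 over PN9 was 6.03 ± 0.92 (SE, adjusted p = 0.00316), or 65.4-fold on the log2(signal + 16) scale used throughout, and it passed without any single array. The second, much dimmer probe set of Myh4 gave a log2 change of 2.30. Myh1, the chain of 2X fibres, read 18.9, 305 and 2870.3 at PN9, 7434, 10912 and 7765 at PN14 and 6149.7, 1703 and 1735 at PN20. The PN14 arrays were all higher than the PN9 arrays, and PN9 replicate 3 lay far above the other PN9 arrays. Its log2 change at PN14 over PN9 was 4.75 ± 1.07 (SE, adjusted p = 0.0193), and the call was lost when PN9 replicate 2 or either of PN14 replicates 1 and 2 was left out. The probe set is of a kind that related sequences can share, and the other probe set of the gene gave 4.59.

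Myh2, the chain of 2A fibres, read 10.1, 601 and 2378 at PN9, 2056, 2176 and 724 at PN14 and 1952, 426 and 313 at PN20. PN9 replicate 3 had the highest signal of the 9 wild type arrays and PN9 replicate 1 the lowest, so the ages overlapped, and the log2 change of 2.15 ± 1.18 (SE, adjusted p = 0.265) at PN14 over PN9 did not pass. Myh3 encodes the embryonic chain and read 2.73, 165 and 339.9 at PN9, 2373, 2479 and 875 at PN14 and 1712, 245 and 112 at PN20. It was higher on every PN14 array than on any PN9 array, with a log2 change of 4.04 ± 1.10 (SE, adjusted p = 0.0421), a call that was lost without PN9 replicate 1 or 2, any single PN14 array or PN20 replicate 2. The neonatal chain gene Myh8 had 1.56, 43.01 and 498 at PN9, 237, 241 and 168 at PN14 and 124, 51.2 and 13.9 at PN20. Here PN9 replicate 3 stood above all PN14 arrays, and the log2 change of 1.496 ± 1.05 (SE, adjusted p = 0.392) did not pass. Myh7, the chain of slow fibres and of the heart ventricle, was dim throughout, with 18.04, 69.7 and 134 at PN9, 74.1, 131 and 105 at PN14 and 74.7, 26.1 and 22.5 at PN20. Its groups overlapped at PN14 and PN9, and the log2 change was 0.62 ± 0.51 (SE, adjusted p = 0.467).

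**Figure D1:**
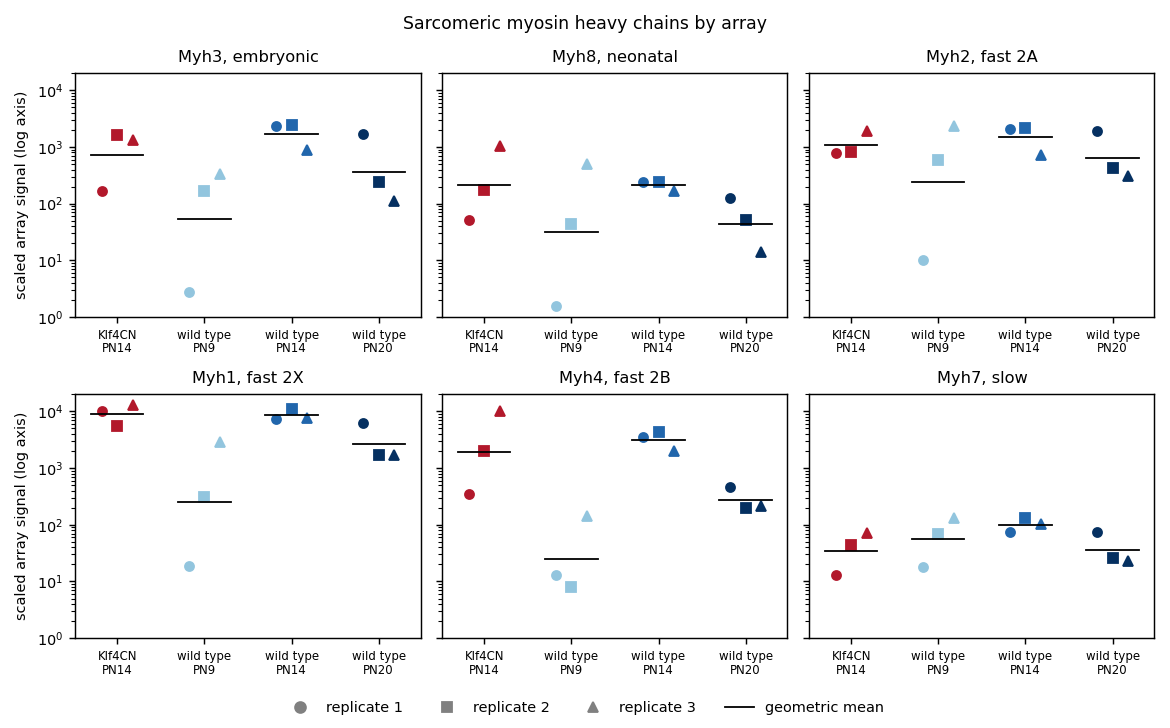
Scaled array signal (log axis) of the 6 sarcomeric myosin heavy chains on each of the 12 arrays, by group (3 arrays each, marker shape gives the replicate, line gives the geometric mean). Myh4 lies at or above 1979 on the 3 wild type PN14 arrays and at or below 459 on the 6 wild type arrays of PN9 and PN20, while Myh8 and Myh2 overlap between the ages with PN9 replicate 3 high.

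The light chains sit on the neck of the heavy chain. Myl1, the essential light chain of fast fibres, read 12.2, 117 and 1127 at PN9, 1826, 1567 and 1042 at PN14 and 704, 213 and 111 at PN20. PN9 replicate 3 reached the lower PN14 levels, and the other PN9 arrays were well below them, giving a log2 change of 3.16 ± 0.97 (SE, adjusted p = 0.063) at PN14 over PN9. Mylpf, the regulatory light chain of fast fibres, read 32.3, 137 and 1379.7 at PN9, 2489.6, 1908 and 969.9 at PN14 and 863, 253 and 183 at PN20, with the same array pattern and a log2 change of 2.95 ± 0.92 (SE, adjusted p = 0.0668). Neither passed. Myl3, an essential light chain of slow fibres and heart, read 37.7, 51.4 and 47.8 at PN9, 41.04, 53.95 and 72.7 at PN14 and 21.7, 43.5 and 41.6 at PN20, and the ages overlapped with a log2 change of 0.21 ± 0.24 (SE, adjusted p = 0.634). For Myl2, the regulatory light chain of slow fibres and heart, the log2 change was 0.08 ± 0.40 (SE, adjusted p = 0.926). No light chain gene passed, with adjusted p from 0.063 to 0.926.

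In the thin filament no gene passed at PN14 over PN9, although 8 of the 9 changes were positive (median 1.65). Tnnc2, the fast fibre troponin C that binds calcium, read 46.3, 383 and 2258 at PN9, 3635, 3799 and 2699 at PN14 and 1884, 623 and 261 at PN20. The PN9 arrays ran from near the background to close to the PN14 level, and the log2 change was 3.13 ± 0.98 (SE, adjusted p = 0.0675). Acta1, skeletal muscle actin, read 27.4, 486 and 1967 at PN9, 2726, 2071 and 1061 at PN14 and 822, 379.8 and 299 at PN20, a log2 change of 2.39 ± 0.94 (SE, adjusted p = 0.13). Tnnt3, the fast troponin T that ties troponin to tropomyosin, read 24.3, 94.8 and 519 at PN9, 852, 623 and 489 at PN14 and 406, 137 and 149 at PN20, a log2 change of 2.29 ± 0.81 (SE, adjusted p = 0.0943). In all 3 genes PN9 replicate 3 stood far above the other PN9 arrays. Tpm1, a tropomyosin that many cell types outside muscle also make, was the 1 gene of the class with a negative change: it read 918, 1029.9 and 882 at PN9, 1249.99, 602 and 555 at PN14 and 517, 491 and 353 at PN20, a log2 change of -0.33 ± 0.29 (SE, adjusted p = 0.52). Its second probe set behaved differently, with a log2 change of 1.86 at PN14 over PN9. The other thin filament genes, namely Tnni2 (fast troponin I), Tnnt1, Tnni1 and Tnnc1 (slow troponin T, I and C) and Neb (nebulin, which runs along the filament), had log2 changes between 0.97 and 1.89. Tnni1 had no Present call at PN9, and its change did not pass (limma adjusted p = 0.0913). With its PN9 signals raised to the dimmest called Present on those arrays, its fold at PN14 over PN9 was 2.78. That fold allows for background only, not for the scatter between arrays, and PN14 replicate 3 read 14.2.

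The thick filament and Z disc genes had 1 member that passed, Actn3, the alpha-actinin of fast fibre Z discs. It read 9.85, 16 and 36.1 at PN9, 207, 255 and 54.2 at PN14 and 48.7, 20.2 and 18.1 at PN20. The PN14 arrays lay above the PN9 arrays without overlap, and the log2 change was 2.21 ± 0.51 (SE, adjusted p = 0.0219). The call was lost when any 1 of PN9 replicates 1 and 2 and PN14 replicates 1 and 2 was left out, with adjusted p up to 0.0931. Ttn, titin, the giant spring that spans from the Z disc to the middle of the sarcomere, read 26.8, 101 and 2788 at PN9, 2666, 1796 and 1628 at PN14 and 2058, 360.3 and 268 at PN20. PN9 replicate 3 exceeded all 3 PN14 arrays, and the log2 change of 3.05 ± 1.12 (SE, adjusted p = 0.105) did not pass. Myot, myotilin, a Z disc protein that binds actin, read 13.3, 18.3 and 317 at PN9, 584, 473 and 231 at PN14 and 369.8, 142 and 62.1 at PN20, with a log2 change of 2.59 ± 0.77 (SE, adjusted p = 0.057). The other 6 genes of the class, namely Actn2 (the alpha-actinin of all fibres), Mybpc1 and Mybpc2 (slow and fast myosin-binding protein C), Myoz1 and Myoz2 (Z disc proteins of fast and of slow fibres) and Tcap (which caps titin), had log2 changes from 0.66 to 1.998, none passing.

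Among calcium handling genes Pvalb, parvalbumin, a soluble calcium buffer of fast fibres, read 11.8, 32.3 and 378 at PN9, 1462, 1493 and 835 at PN14 and 469, 172 and 149 at PN20. No PN9 array reached the PN14 levels, and the log2 change of 3.94 ± 0.72 (SE, adjusted p = 0.00857) passed without any single array. Atp2a1, the calcium pump of fast sarcoplasmic reticulum, read 22.9, 77.4 and 274 at PN9, 1079.9, 929 and 553 at PN14 and 445, 121 and 155 at PN20. The PN14 arrays were again the highest, and the log2 change was 3.04 ± 0.70 (SE, adjusted p = 0.0221). Leaving out any 1 of the same 4 arrays as for Actn3 ended this call too, with adjusted p up to 0.0966. Casq1, the fast form of calsequestrin that stores calcium in the reticulum, read 137, 133 and 406 at PN9, 822, 624 and 465 at PN14 and 528, 148 and 124 at PN20, with a log2 change of 1.58 ± 0.51 (SE, adjusted p = 0.0732) that did not pass. Casq2 (slow calsequestrin), Ryr1 (the calcium release channel) and Cacna1s (the voltage sensor) had log2 changes of 0.42, 1.56 and 0.83, and Cacna1s had no Present call at PN9 or PN20.

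Of the 6 energy genes 3 passed. Ckmt2, the mitochondrial creatine kinase of striated muscle, read 10.9, 8.52 and 74.1 at PN9, 622, 710.2 and 464 at PN14 and 392, 116 and 53.2 at PN20. The PN9 arrays all lay below the PN14 arrays, and the log2 change of 3.96 ± 0.75 (SE, adjusted p = 0.00952) passed without any single array. Pgam2, the muscle form of phosphoglycerate mutase, read 22.3, 5.94 and 114 at PN9, 465, 359 and 201 at PN14 and 151, 90.7 and 61.3 at PN20, with no overlap between PN14 and PN9 and a log2 change of 2.83 ± 0.60 (SE, adjusted p = 0.0154). Without any 1 of those 4 arrays it did not pass, with adjusted p up to 0.0675. Mb, myoglobin, the oxygen store of muscle, read 2.54, 217 and 1360.3 at PN9, 2717, 3032 and 2004 at PN14 and 2485, 630.1 and 301 at PN20. It spanned the widest range of the class at PN9, and its log2 change of 3.82 ± 1.09 (SE, adjusted p = 0.049) lay at the threshold and was lost without any 1 of 9 of the 12 arrays. Ckm (the cytosolic creatine kinase of muscle), Eno3 (muscle enolase) and Cox6a2 (a muscle subunit of cytochrome oxidase) had log2 changes of 1.95, 1.65 and 1.51, which did not pass. At the synapse Chrna1, the alpha subunit of the muscle acetylcholine receptor, read 31.7, 10.8 and 95.6 at PN9, 64.2, 52.9 and 41.99 at PN14 and 50.7, 26.4 and 38.4 at PN20, a log2 change of 0.39 ± 0.46 (SE, adjusted p = 0.636). Musk, with no Present call, read 24.6, 3.35 and 16.7 at PN9, 13.8, 24.1 and 17.1 at PN14 and 9.69, 31.1 and 5.84 at PN20, values that cannot be ordered because no group was called Present.

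**Figure D2:**
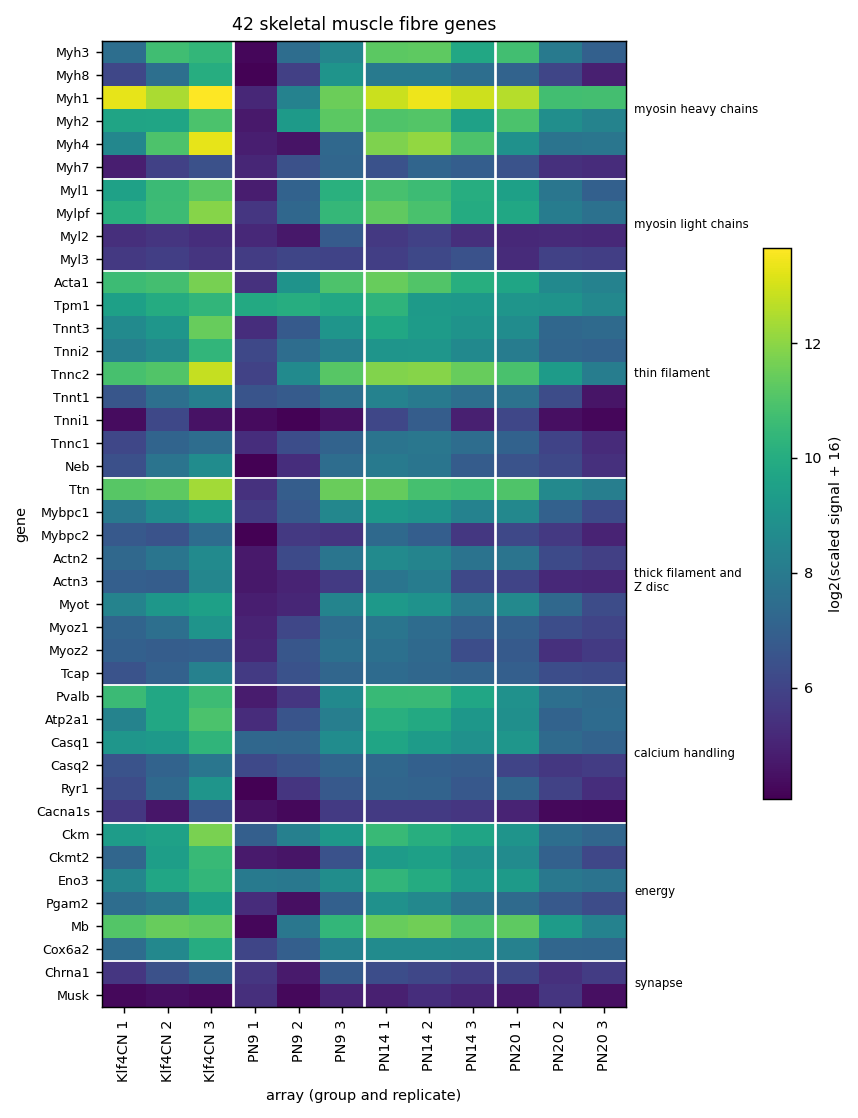
Log2(scaled signal + 16) of the 42 genes (rows, ordered by role) on the 12 arrays (columns, by group and replicate). PN9 replicate 1 and, for most genes, PN9 replicate 2 are dark while PN9 replicate 3 approaches the PN14 arrays, and Klf4CN replicate 3 is the brightest array of its group for 35 genes.

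Divided by fibre type, 5 of 14 genes of fast fibres passed at PN14 over PN9, with a median log2 change of 2.62 and a range of 1.22 to 6.03. Of 9 genes of slow fibres none passed, and their median was 0.66, with a range of 0.08 to 1.85. All 9 slow changes were positive. Of the 17 genes used by both fibre types or by neither alone, 3 passed (median 1.89), and of the 2 developmental heavy chains Myh3 passed and Myh8 did not. The difference between fast and slow genes was not tested, and many slow genes were dim, where the offset of 16 pulls log2 changes toward 0.

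At PN20 over PN14 the fibre genes ran the other way, without any of them passing. All 42 log2 changes at PN20 over PN14 were negative, with a median of -1.56 against 0.01 for all genes. None passed limma's adjusted threshold, which 0.713% of all genes passed as lower and 0.677% as higher. At an unadjusted limma p under 0.05 there were 22 of the 42 genes, against 16.9% of all genes in either direction. In 23 genes the 3 PN20 arrays lay below all PN14 arrays, which was so for 14.2% of all genes, and in 0 they lay above (16.2% of all genes). The rule of the authors' deposited table called 22 of the 42 lower, against 2.94% of all genes called in either direction. With only the PN20 and PN14 arrays in the limma fit, 22 genes passed as lower, and with array weights 12 did.

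Myh4 had the largest of these changes. Its 3 PN20 arrays read 459, 201 and 213, against 3515, 4341 and 1979 on the PN14 arrays, without overlap, and the log2 change was -3.45 ± 0.92 (SE, adjusted p = 0.076). Pvalb came to 469, 172 and 149 at PN20, against 1462, 1493 and 835 at PN14, with a log2 change of -2.33 ± 0.72 (SE, adjusted p = 0.113). The adjusted p nearest to the threshold belonged to Casq2, the calsequestrin of slow fibres and heart, at 49.1, 33.1 and 38.7 for PN20 against 137, 112 and 104 for PN14, with a log2 change of -1.25 ± 0.31 (SE, adjusted p = 0.0598). Mylpf and Myl1, the fast light chains, had log2 changes of -2.22 ± 0.92 (SE, adjusted p = 0.235) and -2.40 ± 0.97 (SE, adjusted p = 0.221). Myh1 reached 6149.7 on PN20 replicate 1, close to its lowest PN14 array, and was far lower on the other PN20 arrays, a log2 change of -1.70 ± 1.07 (SE, adjusted p = 0.457). Ranges by class were -2.27 to -0.72 for the thin filament, -1.91 to -0.77 for the thick filament and Z disc, and -2.14 to -1.08 for the energy genes.

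Other cell types moved in the same comparison. Of 11 markers of smooth muscle and mural cells 4 passed as lower at PN20 over PN14, and their summed signal was 5801 to 7772 on PN20 arrays, against 11911 to 16202 on PN14 arrays. Of 11 markers of fibroblasts and stroma 2 passed as lower, with sums of 36358 to 39276 at PN20 and 50178 to 59605 at PN14. At PN20 1 of the smooth muscle and 0 of the stroma markers had no Present call, and the smooth muscle myosin Myh11 read 288, 312 and 256 at PN20, against 1602, 1036 and 965 at PN14. Their part in the fibre result was not tested. Within PN20 the shared fibre level ran from 6.61 on replicate 3 to 8.33 on replicate 1.

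The PN20 arrays were also set directly against PN9, where 1 fibre gene, Tpm1, passed as lower and the heavy chains Myh1 and Myh4 missed the threshold narrowly as higher. The median log2 change was 0.37, against 0.02 for all genes, and 31 of 42 changes were positive. No gene passed as higher, where 13.5% of all genes did, and 1 passed as lower, where 10.8% did. An unadjusted limma p under 0.05 was found for 6 of the 42 and for 36.8% of all genes. PN20 arrays lay wholly above PN9 arrays in 1 of the 42 genes (25.1% of all genes) and wholly below in 2 (18.5% of all genes). By the authors' deposited rule 2 of the 42 were called, against 13.5% of all genes. The gene that passed was Tpm1, with 517, 491 and 353 at PN20, against 918, 1029.9 and 882 at PN9, and a log2 change of -1.05 ± 0.29 (SE, adjusted p = 0.0196). The call was lost without PN9 replicate 1 or 2 or PN20 replicate 3, and the second probe set of Tpm1 gave 0.17. Beside it, 8 of the 11 smooth muscle and mural markers, a cell type that also makes tropomyosin 1, passed as lower at PN20 over PN9, with sums of 5801 to 7772 at PN20 and 13546 to 18247 at PN9, and their part in the Tpm1 result was not tested. Myh1 and Myh4 had the largest positive changes, 3.05 ± 1.07 (SE, adjusted p = 0.0506) and 2.58 ± 0.92 (SE, adjusted p = 0.0555). The second, much dimmer probe set of Myh4 gave only 0.16 in this comparison, and that of Myh1 gave 2.86. Myh1 passed without PN9 replicate 3 or Klf4CN replicate 3 and Myh4 without PN9 replicate 3, Klf4CN replicate 1 or Klf4CN replicate 3, with adjusted p of at most 0.0433 and 0.0192. Without any other single array neither passed, with adjusted p up to 0.201 for Myh1 and 0.195 for Myh4. Among the other settings tried, Myh1 passed with offset 64, median scaling over every probe set, the filter on Present calls, array weights and the shared fibre level as a covariate, and Myh4 with offset 4, array weights, the replicate block, only these 2 groups and the same covariate. Neither passed under the rest. In the authors' deposited table the fibre genes called here were Tpm1, lower, and Myh4, higher. Fast fibre genes had a median of 0.75 and slow fibre genes one of -0.37. The 3 comparisons of age share arrays, as does that of Klf4CN with PN14, so their changes are not independent of each other.

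**Figure D3:**
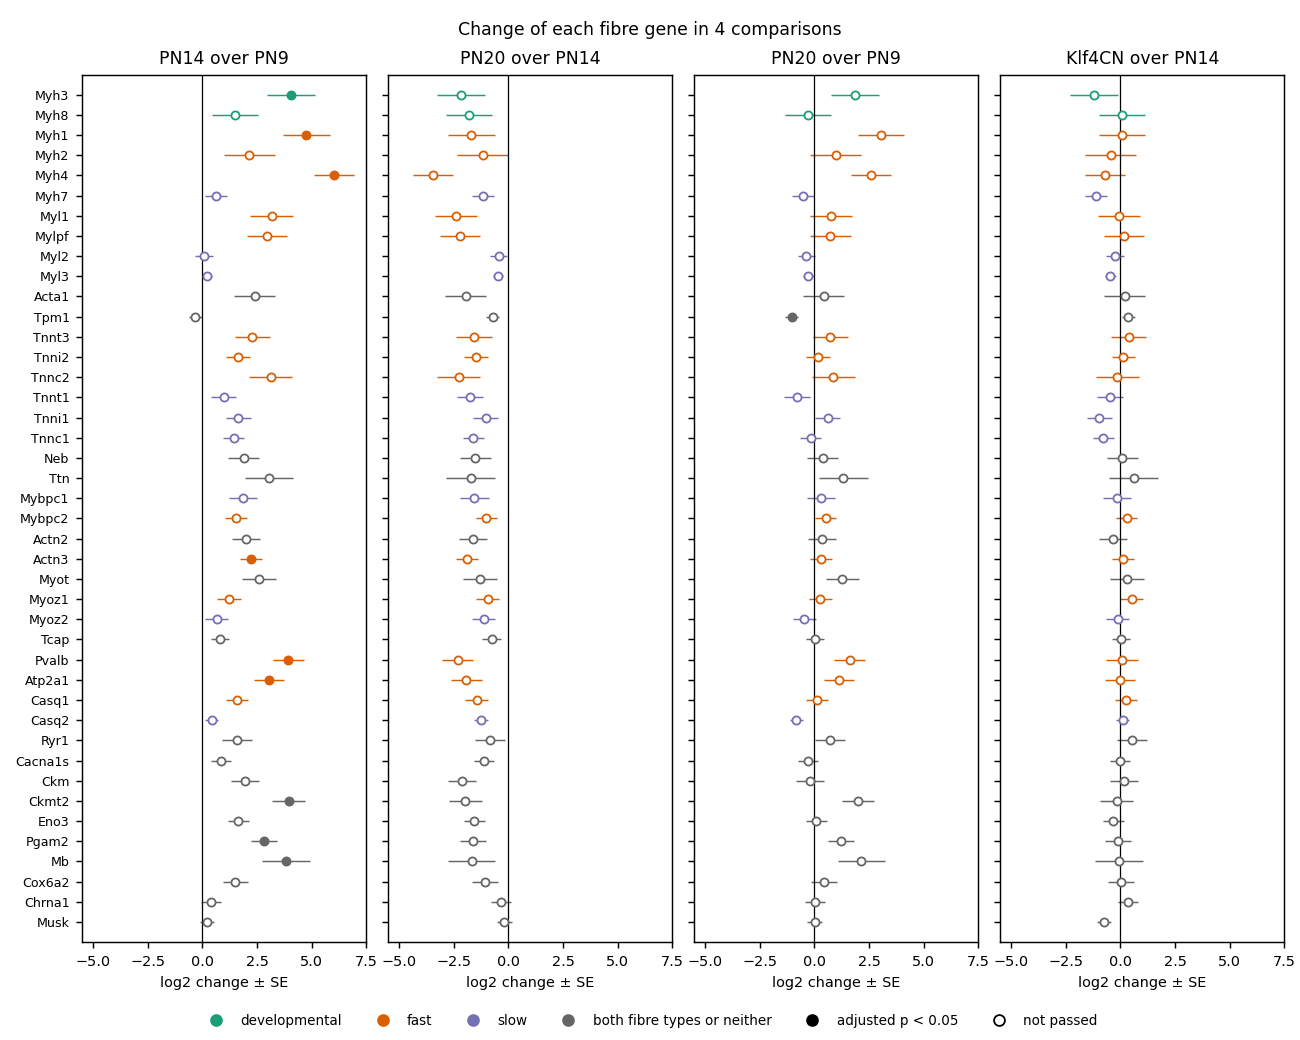
Log2 change ± SE (limma, 3 arrays per group) of each of the 42 genes in the 4 comparisons, coloured by fibre type, with filled points where the adjusted p is under 0.05. At PN14 over PN9, 9 points are filled and 41 lie right of 0, at PN20 over PN14 all 42 lie left of 0 and none is filled, at PN20 over PN9 only Tpm1 is filled, and for Klf4CN over PN14 none is.

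Between Klf4CN and wild type at PN14 no fibre gene passed. None of the 42 reached limma's adjusted threshold in either direction, where 0.0776% of all genes passed as higher and 0.106% as lower. Their median log2 change was 0.00, as for all genes, and 21 of 42 changes were positive. At an unadjusted limma p under 0.05 there were 2 genes, Myh7 and Musk, against 8.58% of all genes, and the authors' rule called none, against 0.946% of all genes. In 3 genes, Myh7, Tnnc1 and Musk, the Klf4CN arrays lay below all PN14 arrays, against 6.67% of all genes, and in 0 genes they lay above, against 6.42%. Musk had no Present call in either group, so its place in these counts cannot be read as a change. That no gene passed limma does not show equal levels, since the standard error of a heavy chain's log2 change was between 0.51 and 1.18.

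Myh7, the slow chain, read 13.1, 44.3 and 70.7 on Klf4CN arrays, against 74.1, 131 and 105 on PN14 arrays, with a log2 change of -1.13 ± 0.51 (SE, adjusted p = 0.556). It had no Present call in Klf4CN, so the size of this change is limited by background. The fold of 2.19 for PN14 over Klf4CN is an estimate that carries the error of the log2 change. Tnnc1, the troponin C of slow fibres and heart, read 53.2, 124 and 164 in Klf4CN, against 200.3, 216 and 164 at PN14, a narrow gap between the nearest arrays, with a log2 change of -0.79 ± 0.48 (SE, adjusted p = 0.685). For Myh4 the Klf4CN arrays read 345, 1969 and 9962, against 3515, 4341 and 1979 at PN14. They lay on both sides of the PN14 arrays, and the log2 change was -0.70 ± 0.92 (SE, adjusted p = 0.884). Myh1 read 10007, 5553 and 12819.7 in Klf4CN, against 7434, 10912 and 7765 at PN14, and Myh3 read 168, 1637 and 1335, against 2373, 2479 and 875. Myh8 came to 51.8, 174 and 1041 in Klf4CN, against 237, 241 and 168 at PN14, and Myh2 to 789.5, 818 and 1923, against 2056, 2176 and 724. Each of these groups overlapped. The fast fibre genes had a median of 0.08 and the slow fibre genes one of -0.46. Klf4CN replicate 3, which carried the most muscle signal, also had the highest 18S ribosomal control of all arrays, 13683 against at most 6691 on the wild type arrays, and its part in these values was not tested.

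The heavy chains were also compared within each array. Differences between probe sets on the same array say nothing of the level of one gene against another, but their change between groups shows unequal change. The log2 difference Myh8 minus Myh1 was -2.49 to -0.99 on the PN9 arrays, -5.41 to -4.88 at PN14 and -5.87 to -4.68 at PN20, so that PN14 and PN20 both lay wholly below PN9 and overlapped each other. On PN9 replicate 1 both genes lay near or below the offset of 16, which holds their difference near 0, and the other PN9 arrays were at -2.44 and -2.49. Myh4 minus Myh2, 2 fast chains, was -4.69 to 0.15 at PN9, 0.77 to 1.43 at PN14 and -2.05 to -0.53 at PN20. The PN14 arrays were above all others, and PN9 replicate 1, where both genes were near background, supplied the highest PN9 value. In Klf4CN the same difference was -1.16 to 2.36, which spanned the PN14 range. For Tnnt1 minus Tnnt3, the slow and the fast troponin T, the values were -1.49 to 1.22 at PN9, -1.45 to -1.35 at PN14 and -2.76 to -0.96 at PN20, and for Casq2 minus Casq1, the slow and the fast calsequestrin, -1.57 to -0.67, -2.46 to -2.01 and -3.06 to -1.36. The light chain pair Mylpf minus Myl1, both fast, was 0.20 to 0.78 at PN9, -0.10 to 0.44 at PN14 and 0.23 to 0.65 at PN20, with overlap throughout.

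Relative to the shared fibre level of its array, Myh4 stood at -1.06 ± 0.67 on the log2 scale at PN9, 2.77 ± 0.32 at PN14 and 0.82 ± 0.35 at PN20 (SD, n = 3 each), and the 3 ages did not overlap. Myh8 stood at -0.30 ± 0.95, -1.003 ± 0.15 and -1.31 ± 0.36 in the same order, and Myh1 at 1.68 ± 1.71, 4.23 ± 0.45 and 4.03 ± 0.32. The PN9 means are limited by background. Myh4 had 1 Present call at PN9 and read 12.97 and 7.95 on replicates 1 and 2, below the offset. On PN9 replicate 1 Myh8 read 1.56 and Myh1 18.9, below or near the offset, and the shared fibre level was 5.29. PN9 replicate 3, where Myh4 read 142, stood at -0.97, also below every PN14 and PN20 array. In a limma fit with the shared fibre level as a covariate, added after the data had been seen, the log2 change of Myh4 at PN14 over PN9 was 3.36 with an adjusted p of 0.0446, and that of Myh8 turned to -2.09 with an adjusted p of 0.0254. The same fit lost the calls of Myh1 and Myh3. Klf4CN replicate 1, PN9 replicate 3, PN14 replicate 3 and PN20 replicate 1, picked after their levels were seen, had shared fibre levels within 8.10 to 8.41, which puts single arrays of each group side by side, with no test. On them Myh4 read 345 on the Klf4CN array and 142, 1979 and 459 at PN9, PN14 and PN20. Myh8 read 51.8 on the Klf4CN array and 498, 168 and 124 at PN9, PN14 and PN20. Myh1 read 10007 on the Klf4CN array and 2870.3, 7765 and 6149.7 at PN9, PN14 and PN20. The embryonic Myh3 read 168 on the Klf4CN array and 339.9, 875 and 1712 at PN9, PN14 and PN20. Myh2 read 790 on the Klf4CN array and 2378, 724 and 1952 at PN9, PN14 and PN20. The dim Myh7 read 13.1 on the Klf4CN array and 134, 105 and 74.7 at PN9, PN14 and PN20. On these single arrays, then, Myh8, Myh2 and Myh7 were highest at PN9 among the wild type ages, Myh4 and Myh1 at PN14, and Myh3 at PN20.

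**Figure D4:**
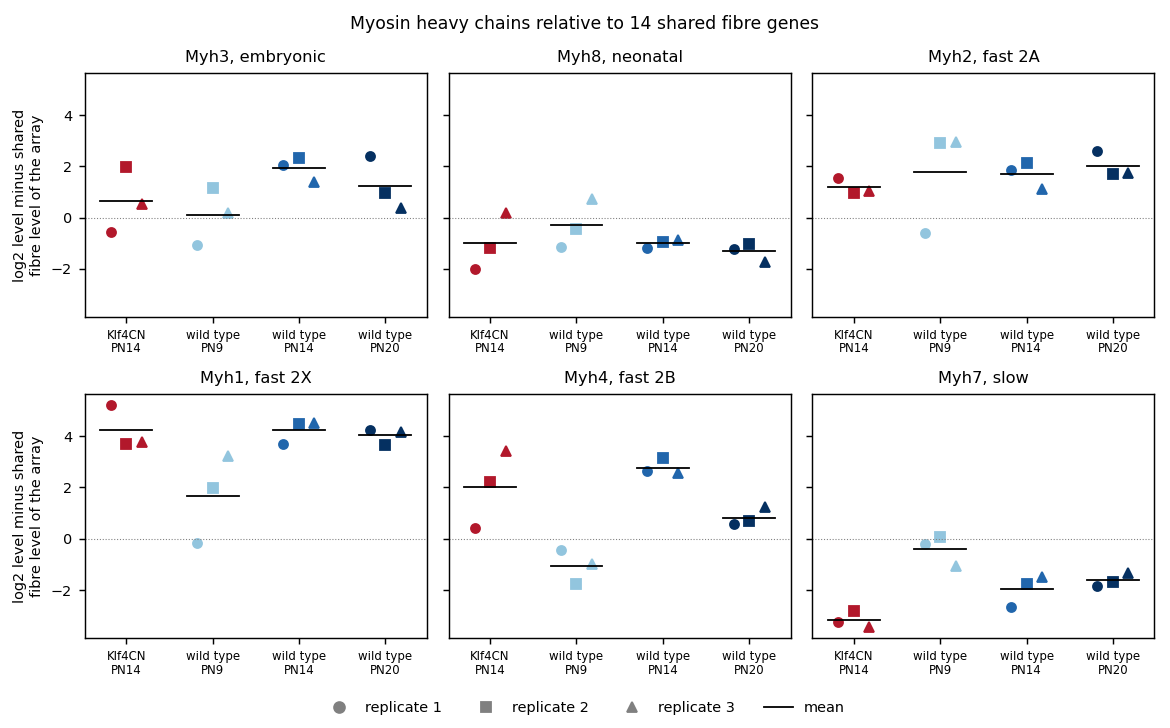
Log2 level of each heavy chain minus the shared fibre level of the same array (mean log2 level of 14 genes used by fast and slow fibres), by group with 3 arrays each (marker shape gives the replicate, line gives the mean). Myh4 lies between -1.76 and -0.44 at PN9 and between 2.55 and 3.14 at PN14, while the Klf4CN arrays spread from 0.40 to 3.40. On PN9 replicates 1 and 2 the Myh4 signal was below the offset, so these points are limited by background.

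Related genes outside the 42 were read from lists by function. The share to set beside each count at PN14 over PN9 is that of all genes, 4.34% passing as higher and 2.66% as lower. Whether any list exceeded it was not tested, and counts of 1 or 2 genes are too small to tell. At PN14 over PN9, 2 of 33 tested genes of other sarcomere parts passed as higher and none as lower. They were Smpx, a small muscle protein, with a log2 change of 3.58 ± 0.87 (SE, adjusted p = 0.0275), and Pdlim5, a Z disc adaptor also made elsewhere, with 1.49 ± 0.30 (SE, adjusted p = 0.0119). Of other excitation and calcium handling genes 2 of 18 passed as higher, Hrc, a calcium-binding protein of the reticulum, with 1.85 ± 0.47 (SE, adjusted p = 0.0334), and Asph, with 1.28 ± 0.32 (SE, adjusted p = 0.03). Asph and Pdlim5 did not follow the fibre genes across the arrays. Asph read 1826, 1519 and 1582 at PN20, against 1145, 1316 and 734 at PN14. Pdlim5 read 2318, 2067 and 2293 at PN20, against 1412, 1789 and 1094 at PN14. Both were lowest of their group on Klf4CN replicate 3, the array with the most muscle signal. Of other energy genes 4 of 22 passed as higher, the largest changes being those of the ADP-ribosyltransferase Art1 with 2.02 ± 0.56 (SE, adjusted p = 0.0461), Pdk4, a brake on glucose oxidation, with 1.90 ± 0.48 (SE, adjusted p = 0.0329), and Art3 with 1.32 ± 0.32 (SE, adjusted p = 0.0272). Mef2d, a factor of the MEF2 family, was the 1 of 14 tested myogenic and satellite cell genes that passed as higher with a log2 change of 0.77 ± 0.17 (SE, adjusted p = 0.0178), and Fbxo32, a ubiquitin ligase of muscle, the 1 of 11 among membrane and hormone genes with a log2 change of 0.98 ± 0.28 (SE, adjusted p = 0.0489). On PN9 replicates 1, 2 and 3 Mef2d read 281, 265 and 298 and Fbxo32 217, 236 and 241. Both thus changed little while the shared fibre level rose from 5.29 to 8.28 over these arrays. None of 5 other developmental isoforms or 6 other synapse genes passed. No gene of these lists passed as lower in that comparison. At PN20 over PN14 only Des, desmin, the intermediate filament of skeletal and smooth muscle, passed among the other sarcomere parts, lower with a log2 change of -1.62 ± 0.27 (SE, adjusted p = 0.0136). Over all genes 0.713% passed as lower there. Des read 156, 153 and 98.1 at PN20 with no Present call, so the size of its change is limited by background. It is also among the smooth muscle and mural markers counted above, and so is not separate evidence on fibres. In Klf4CN over PN14 no gene of any of the 7 muscle lists passed.

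Partners of the developmental switch were included. Actc1, the actin of fetal skeletal muscle and adult heart, read 91.8, 176 and 499 at PN9, 928, 866 and 738 at PN14 and 361, 99.3 and 53.2 at PN20. Its PN14 arrays lay above all PN9 and PN20 arrays, and the log2 change at PN14 over PN9 was 1.96 ± 0.81 (SE, adjusted p = 0.144), which did not pass. Myl4, the embryonic essential light chain, was lower at PN20 over PN9, with a log2 change of -1.36 ± 0.30 (SE, adjusted p = 0.00572), as was Tnnt2, a troponin T of fetal muscle and heart, with a log2 change of -1.003 ± 0.30 (SE, adjusted p = 0.0264). Over all genes 10.8% passed as lower in that comparison, and 8 of 11 smooth muscle and mural markers did. On PN9 replicates 1 and 3 Myl4 read 111 and 167 and Tnnt2 226 and 215. Both thus differed little between these arrays, whose shared fibre levels were 5.29 and 8.28. The cell type behind their change was not tested. Chrng and Chrne, the fetal and the adult subunit that are exchanged in the muscle acetylcholine receptor, had no Present call in any group. Of the myogenic factors, Myod1 and Myog had no Present call at PN9 and 2 each at PN14, Myf6 had none at PN9 and 3 at PN14, and the satellite cell factor Pax7 had none in any group. Pax3 was lower at PN20 over PN9, with a log2 change of -1.02 ± 0.30 (SE, adjusted p = 0.0228). Of 8 heart markers, Tnni3, Nppb and Gja5 had no Present call in any group, and Myh6, Myl7 and Mybpc3 had at most 2 in a group. Nppa had 2 at PN9 and 3 at PN20, and Tnnt2, made in fetal muscle too, had 3 in every group. The 8 heart markers summed to 282 to 517 in Klf4CN and in wild type to 344 to 512 at PN9, 413 to 421 at PN14 and 202 to 300.5 at PN20.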

How the data were processed

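The arrays measured RNA of laser-captured forniceal epithelium. The authors deposited linear signal intensities from GCOS 1.4, with the trimmed mean of every array brought to 150, per the labels and the submitters' processing notes. The authors also deposited, for each pair of groups, a score that sums increases and decreases over pairwise array comparisons, the number of Present calls in each group and a code of the comparisons passed, which served as their rule. The series table and the authors' table held identical intensities (largest difference 0), and all 24 sample columns were mapped.

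After removing 64 control probe sets, probe sets were retained if 3 or more arrays had them above the array's 40th percentile (30618 of 45101), and arrays were scaled to a common median of the kept probe sets (factors 0.876 to 1.14). Values were log2(signal + 16), which understates changes of dim genes. Probe sets with 1 symbol in the platform annotation numbered 34958, with several 932 and with none 9211, and each of the 14172 genes tested was its kept probe set of highest mean. limma 3.58.1 in R 4.3.3 fitted 4 group means to 12 arrays (eBayes with trend, 6.02 prior and 8 residual degrees of freedom). P-values were adjusted by Benjamini-Hochberg over all genes, with adjusted p under 0.05 as the threshold. The fit was tested on simulated data. Array number, 3 per group, limits the precision. Where a group had no Present call of a gene, its fold was taken with a floor. The gene was raised on each such array to the dimmest signal there among probe sets with 3 Present calls. The floor limits the fold for background only, not for the scatter between arrays. Log2 changes of such genes are printed as fitted, without the floor.

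The members and lists, the order of their roles and the tests were chosen with earlier results of these data known. Values per array are given for the heavy chains, the 3 members of largest change at PN14 over PN9 in each other role and members that ran against their class. Other named genes are those of largest change among those passing in a list, up to 3, and partners of developmental switches. Same-numbered arrays of different groups did not deviate together (correlations of deviations over 18 pairs from -0.23 to 0.27), so numbers were not used as pairs. Alternatives covered the offset, scaling, filter, probe set choice, variance model, array weights, a replicate block, the groups fitted, the actin ratio and leaving out each array. List genes without a usable probe set, such as Myh13, were not analysed here.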

Additional observations from a re-analysis of the deposited data

How the results depend on the processing

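The median log2 changes of the 42 genes at PN14 over PN9 and at PN20 over PN14 kept their direction under every alternative run, from 1.21 to 2.58 and from -2.05 to -1.18, whereas the medians of PN20 over PN9 (-0.34 to 1.03) and of Klf4CN over PN14 (-0.62 to 0.37) did not. Counts of passing genes moved more, and the cause was not tested. For PN14 over PN9, with 9 genes passing, array weights gave 32, fitting only the compared groups 16 and the actin ratio as a covariate 1, and leaving out single arrays gave 3 to 26. For PN20 over PN14, with 0 genes, array weights gave 12, only the compared groups 22, and leaving out single arrays 0 to 4. For PN20 over PN9, with 1 gene, an offset of 4 gave 3, an offset of 64, scaling by the median over all probe sets, a filter on Present calls and the replicate block gave 2 each, array weights 16, only the compared groups 4, the mean over probe sets 0, the actin ratio 0, and leaving out single arrays 0 to 11. For Klf4CN over PN14, with 0 genes, array weights gave 2 lower and leaving out single arrays gave 0. The replicate block gave 7 genes at PN14 over PN9 and 0 at PN20 over PN14 and in Klf4CN. With the shared fibre level as a covariate, chosen after seeing the data, the log2 change of Myh8 at PN14 over PN9 reversed to -2.09. That covariate is made of genes of the same set and itself differed between the ages. Values of genes near the offset of 16, such as Myh7, Tnni1 and Musk, are limited by signal over background.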

Other observations

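The Klf4CN arrays differed among themselves in the log2 signal of other heavy chains relative to Myh1. On Klf4CN replicate 1 the log2 difference Myh4 minus Myh1 was -4.79, on replicate 2 it was -1.49 and on replicate 3 it was -0.36, where the PN14 arrays lay between -1.96 and -1.08. Myh3 minus Myh1 was -5.77 on Klf4CN replicate 1, -1.75 on replicate 2 and -3.25 on replicate 3, against -3.13 to -1.64 on the PN14 arrays. Klf4CN replicate 1 thus lay below the PN14 arrays in the 2B and the embryonic chain relative to Myh1, and replicate 3 lay above them in the 2B chain. With 3 arrays per group and no label that ties a sample to an animal or a place along the fornix, these are values of single arrays.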
